A study of Mus musculus with 4 samples.

Results

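The 7 genes described here belong to the epidermal tight junction and were followed across the cell classes of adult mouse back skin: the claudins Cldn1, Cldn4 and Cldn12, occludin (Ocln), the zonula occludens scaffolds Tjp1 and Tjp3, and the junctional adhesion molecule F11r. They were taken by symbol, as 7 of the 27998 gene rows of a droplet-based 3′ single-cell RNA-seq matrix. The matrix holds 4 libraries of sorted cells from CD1 mice, 1 library for each combination of genotype and treatment. The genotypes are control and Ovol1 null, where Ovol1 is a zinc-finger transcriptional repressor that acts in epidermal differentiation. Each genotype was sampled untreated and after a single 62.5 mg application of 5% imiquimod (a Toll-like receptor agonist that gives psoriasis-like inflammation) to the shaved back at an age of 7 to 8 weeks. How many mice each library came from, the time between dose and harvest, and the exons removed in the null allele are not stated in the labels. With 1 library a group, genotype, treatment, animal and library cannot be told apart, no test was possible, and every interval below is a 95% counting interval that covers counting error only.

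Ovol1 itself was counted first. Ovol1 stood at 42.8, 40.5, 57.3 and 204 CPM (UMIs of the gene per 1000000 UMIs of the class) in suprabasal keratinocytes of the untreated control, the imiquimod control, the untreated library labelled null and the imiquimod library labelled null. It was therefore not lower in either library labelled null. A 3′ tag outside the removed part of a gene would still be counted, so this neither checks nor contradicts the labels, and both libraries are called "labelled null" throughout. All lists of 4 values below keep this library order.

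Tight junctions seal the space between neighbouring epithelial cells. Claudins form the paracellular strands, occludin and the other MARVEL proteins sit in the same strands, and the zonula occludens scaffolds tie them to actin. F11r (JAM-A) helps to place polarity proteins at the nascent contact. In the epidermis, functional tight junctions are a property of the granular layer, while several of the transcripts are already made in lower layers, and loss of Cldn1 in mice is lethal through water loss across the skin.

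After filtering, 6060, 5581, 5219 and 5564 cells remained, with a median of 5704.5, 4760, 5706 and 8395.5 UMIs a cell, and the pairs of libraries shared 37 to 47 barcode sequences. The 3 keratinocyte classes were named from marker lists: basal-like (Krt5, Krt14 and integrins; 568, 1027, 804 and 805 cells), suprabasal-like (Krt1, Krt10, Krtdap; 522, 843, 877 and 293 cells) and upper hair follicle-like (Krt79, Krt17, Cst6; 455, 798, 599 and 352 cells). The imiquimod library labelled null stood apart. Its suprabasal cells had a median of 19057 UMIs against 6760.5 to 7558 in the other libraries, with Krt16 at 4130 CPM against 7.03 to 63.0 and S100a8 at 12826 against 0 to 39.0. Different joint clusters held each class: suprabasal cells lay in cluster 4 in both untreated libraries (99.8% and 100%; globin genes were among its leading genes), in cluster 9 in the imiquimod control (97%) and in cluster 10 in the imiquimod library labelled null (93.2%). Cluster 10 was led by Krt16, Krt6b and S100a8 and carried as many suprabasal as upper follicle markers. It also held 83.2% of the upper follicle class and 15.8% of the basal class of that library, and its cells were divided among the classes by a clustering of that library alone.

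The 7 genes lie on 6 chromosomes of mouse build GRCm38. Cldn1 is at chr16:26356642-26371841 (minus strand, 4 exons), Cldn4 at chr5:134945119-134946934 (minus strand, a single exon) and Cldn12 at chr5:5489537-5514958 (minus strand, 5 exons). Ocln is at chr13:100496507-100552718 (minus strand, 9 exons) and F11r at chr1:171437535-171464603 (plus strand, 10 exons). Tjp1 is at chr7:65296165-65527781 (minus strand, 28 exons) and Tjp3 at chr10:81273207-81291581 (minus strand, 21 exons). The 3′ end of Tjp3, where 3′ tags fall, overlaps the end of Apba3 on the opposite strand. No source used here states whether the counting kept strand, so Tjp3 counts may include Apba3 reads.

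The promoters of Cldn4 and Tjp3 are shown because the levels of these genes ran closest together among the members (r = 0.815 over 36 sums of a class in a library, given as a description). The letters of 4 motifs were searched on both strands in the RefSeq promoters of build GRCm38.p6, which span 250 bases before and 50 after a start site. The E-box, searched as CACCTG and for the other strand as CAGGTG, which Snail and Zeb family repressors can bind, occurred in 20.2% of all 32851 promoters. It occurred in the promoters of Cldn4, Tjp3, Ocln and F11r, and not in those of Cldn1, Cldn12 or Tjp1. CCGTTA, the core bound by OVOL factors (2.76% of all promoters), the Grainyhead-like palindrome AACCGGTT (0.146%) and TATAAA (13.6%) were in none of the 11 promoters of the 7 genes. The first Cldn4 window is centred before the start site and the second after it. Each Tjp3 window comes from a promoter of its own. The capitals mark the E-box, and no window overlaps another motif searched.
Cldn4 chr5:134946933-134946958, minus strand: ttaactgcagCACCTGtggccgccct
Cldn4 chr5:134946908-134946933, minus strand: tttcttgttgCAGGTGcaggcaggaa
Tjp3 chr10:81291674-81291699, minus strand: cacaaggggtCAGGTGtacagacagg
Tjp3 chr10:81291269-81291294, minus strand: caaaccctccCACCTGcaggccggcc

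**Figure D1:**
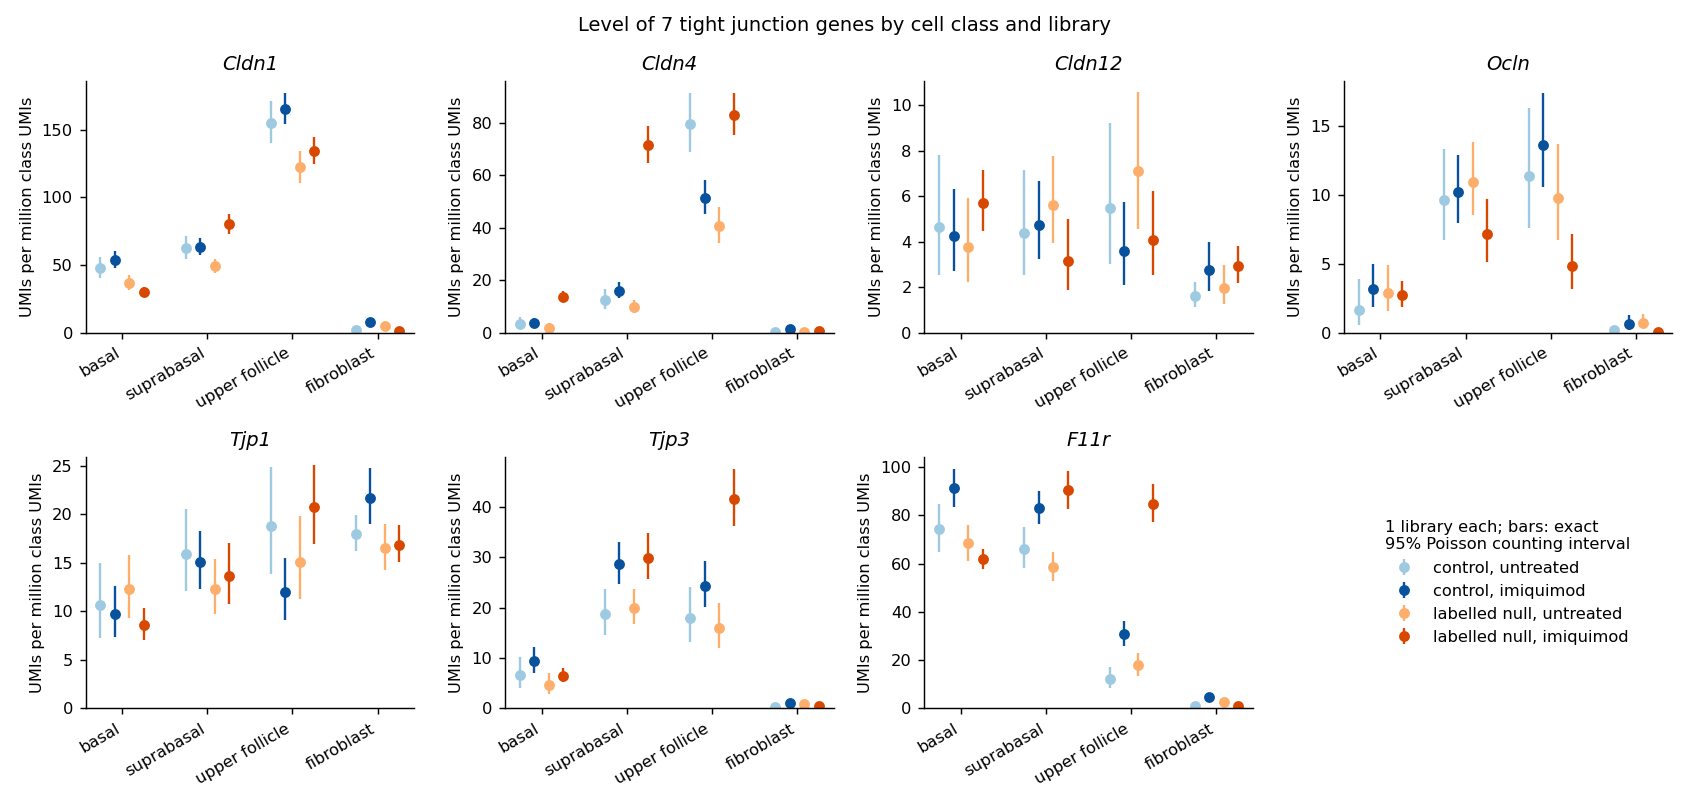
Level of each of the 7 genes (vertical axis, CPM) in the 3 keratinocyte classes and in fibroblasts (horizontal axis), 1 point per library, with exact 95% Poisson intervals. Cldn1 and Cldn4 are highest in the upper follicle class, F11r is low there outside the imiquimod library labelled null, and Cldn4 in suprabasal cells is far higher in that library (71.6) than in the other libraries (9.68 to 16.0).

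Levels are given in CPM of the class. A 3′ UMI stands for 1 captured transcript end, so no length enters; capture differs between genes, and levels were compared only within a gene. Cldn1, the strand-forming claudin of the epidermal barrier, was highest in the upper follicle class, at 155, 165, 122 and 134 CPM. It stood at 62.6, 63.4, 49.0 and 80.0 in suprabasal cells and at 47.8, 53.9, 36.6 and 30.4 in basal cells. The upper follicle class thus held 2.48, 2.61, 2.50 and 1.68 times the suprabasal level, and its counting interval lay above that of both other classes in every library. Fibroblasts, which form no tight junction, held 2.08, 7.93, 4.65 and 1.43.

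Cldn4, a claudin of differentiated and secretory epithelia, followed the same order more steeply. It stood at 79.5, 51.3, 40.6 and 83.1 CPM in the upper follicle class, at 12.4, 16.0, 9.68 and 71.6 in suprabasal cells and at 3.32, 3.53, 1.87 and 13.6 in basal cells. The suprabasal level was 3.72, 4.53, 5.18 and 5.25 times the basal level. Across all genes, 7.9%, 9.46%, 7.72% and 11.6% were higher in suprabasal than in basal cells by the rule used for every ratio below: at least 20 UMIs over both sums, at least 1.5-fold, with the interval of the ratio on 1 side of 1. Between upper follicle and suprabasal cells the Cldn4 ratio was 6.44, 3.21 and 4.19 in the first 3 libraries and 1.16 (1.01 to 1.33) in the imiquimod library labelled null, which did not pass the rule, beside 15.4%, 15.1%, 14.1% and 15.3% of all genes higher in upper follicle cells. In fibroblasts Cldn4 stood at 0.189, 1.18, 0.258 and 0.767.

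Ocln, the 4-pass strand protein, and Tjp3, the zonula occludens scaffold of differentiated epithelia, were also suprabasal rather than basal. Ocln stood at 1.66, 3.17, 2.91 and 2.70 CPM in basal cells and at 9.61, 10.2, 10.9 and 7.18 in suprabasal cells, a ratio of 5.79, 3.21, 3.76 and 2.66. Tjp3 stood at 6.64, 9.34, 4.57 and 6.47 in basal cells and at 18.7, 28.7, 20.0 and 29.9 in suprabasal cells, a ratio of 2.81, 3.07, 4.37 and 4.62. Both passed the rule in all 4 libraries. The upper follicle class held 11.4, 13.7, 9.78 and 4.84 for Ocln, so the imiquimod library labelled null was the lowest. It held 18.0, 24.4, 16.0 and 41.6 for Tjp3, where the same library was the highest.

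F11r went the other way. It stood at 74.3, 91.1, 68.4 and 61.8 CPM in basal cells and at 66.2, 83.1, 58.5 and 90.3 in suprabasal cells, and this suprabasal to basal ratio (0.890, 0.911, 0.856 and 1.46) did not pass the rule in any library. In the upper follicle class it stood at 12.1, 30.7, 17.8 and 84.8. The upper follicle to basal ratio was 0.163, 0.337 and 0.260 in the first 3 libraries and 1.37 in the imiquimod library labelled null, where 14.6%, 9.61%, 15.1% and 17.3% of all genes were lower in the upper follicle class by the rule. F11r transcripts were therefore scarce in the upper follicle class of every library but that one.

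Tjp1 (ZO-1), the scaffold shared by epithelia and endothelia, and Cldn12, a claudin without the usual binding motif for those scaffolds, showed smaller and less regular differences between classes. Tjp1 lay between 8.55 and 12.3 CPM in basal cells, between 12.3 and 15.9 in suprabasal cells and between 12.0 and 20.7 in the upper follicle class, and the fibroblast range of 16.5 to 21.7 overlapped the last. Cldn12 spanned 3.74 to 5.70 in basal, 3.15 to 5.62 in suprabasal and 3.57 to 7.11 in upper follicle cells. Only 529 Cldn12 UMIs were counted in all kept cells, against 5835 for Cldn1, and 1 of its ratios between classes passed the rule, the suprabasal to basal ratio of 0.553 (0.311 to 0.934) in the imiquimod library labelled null. In that direction 17.5%, 15.5%, 19.3% and 27% of all genes passed. Its other differences between classes were not detectable at this depth. Tjp1 passed the rule for suprabasal over basal cells in both imiquimod libraries (1.56 in the control and 1.60 in the one labelled null) and for upper follicle over suprabasal cells in the imiquimod library labelled null (1.52). It was 1.77 times as high in upper follicle as in basal cells in the untreated control and 2.42 times in the imiquimod library labelled null, and did not pass in the other libraries (1.24 and 1.23). By the rule 12.9%, 11.4%, 11.7% and 14.2% of all genes were higher there than in basal cells.

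**Figure D2:**
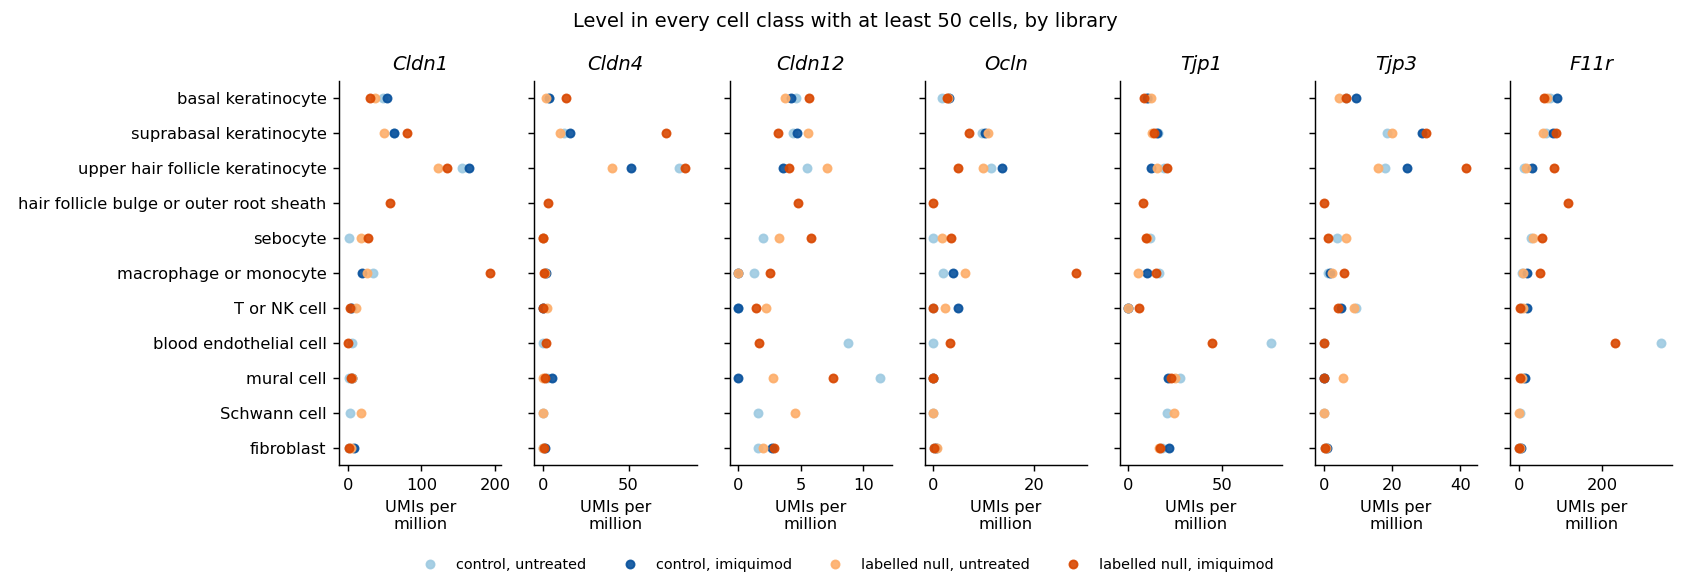
Level of each gene (horizontal axes, CPM, a scale of its own for each gene) in the 11 cell classes with at least 50 cells in a library, 1 point per library. The endothelial class leads for F11r (232 and 342) and Tjp1 (44.4 and 76.0), and the macrophage or monocyte class of the imiquimod library labelled null stands out for Cldn1 (193.5) and Ocln (28.3). The class drawn as Schwann is joint cluster 17. A clustering of the imiquimod library labelled null alone gave myeloid clusters of 57, 49 and 39 cells. The cluster of 49 was named from Langerhans cell markers and that of 39 from macrophage markers. The cluster of 57 was left unnamed. It carried 4 of 5 Langerhans cell markers but was led by Ccl22, Fscn1 and Ccr7.

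Outside the keratinocytes, 8 further classes had at least 50 cells in a library, and the order of the levels was taken from each class's median over its libraries. F11r was highest in the class named from blood endothelial markers, at 342 CPM in the untreated control and 232 in the imiquimod library labelled null. In the untreated control, 60 of the 80 cells of that class came from a joint cluster led by Ccl21a and Lyve1, which are lymphatic genes. Tjp1 was highest in the same class (76.0 and 44.4), above the mural class (21.0 to 27.3), joint cluster 17 (20.8 and 24.4) and fibroblasts, whose ranges overlapped. Cluster 17 (297 and 162 cells of the untreated libraries) carried 4 of 7 Schwann markers, but clusterings of each library alone gave Schwann clusters of 24 and 16 cells, so it is called by its number. No Cldn4 UMI was counted in sebocytes or in cluster 17, where 3 counts would be 2.40 to 5.86 CPM, and Cldn4 stood at no more than 5.24 in any other class outside the keratinocytes. Sebocytes held 1.95, 18.2 and 27.8 for Cldn1 and 29.3 to 55.7 for F11r in the 3 libraries with at least 50 of them. The single bulge or outer root sheath sum, 125 cells of the imiquimod library labelled null, held 119.5 for F11r and no Ocln or Tjp3 UMI, where 3 counts would be 4.78.

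The first comparison asked what imiquimod changed in the control. In suprabasal cells, 1 of 7 genes passed the rule, where 18.9% of all genes did in either direction. That gene was Tjp3, at 1.54 times its untreated level (interval 1.16 to 2.06). In the upper follicle class 3 of 7 passed, against 17.8% of all genes: F11r was higher (2.53, 1.71 to 3.85), and Cldn4 (0.645) and Tjp1 (0.637, 0.426 to 0.956) were lower. That class lay mostly in cluster 8 in the untreated control (83.1%) and in cluster 11 in the imiquimod control (86%). An unnamed joint cluster led by Sostdc1 and Ptn held 275 and 3 cells of these libraries. Within the class, Krt14 stood at 3525 and 6262 CPM and Cst6 at 17893 and 12217. The part of cell make-up in these ratios was not tested. No member passed in basal cells, where 22.5% of all genes did. The Cldn4 value depended on the clustering. When the junction genes were allowed among the genes used for clustering, its upper follicle log2 ratio went from -0.63 to 0.09. With that setting the class went from 798 to 414 cells in the imiquimod control and from 455 to 459 in the untreated control. Median log2 ratios over the 7 genes were 0.17, 0.08 and 0.09 in basal, suprabasal and upper follicle cells, beside -0.21, -0.13 and -0.15 over all measured genes.

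In the libraries labelled null, Cldn4 had the largest ratio of the 7 genes between imiquimod and untreated in basal and suprabasal cells. Whether its change differed between the genotypes was not tested. Suprabasal Cldn4 was 9.68 CPM untreated (62 UMIs) and 71.6 after imiquimod (409 UMIs), 7.40 times as high (5.65 to 9.83). Basal Cldn4 was 1.87 (9 UMIs) and 13.6 (177 UMIs), 7.29 times as high (3.76 to 16.2), and upper follicle Cldn4 was 40.6 and 83.1, 2.05 times as high (1.69 to 2.50). The imiquimod library was the higher one in all 3 classes. Without the doubtful cluster 10 only 59 upper follicle cells remained in it, and the upper follicle log2 ratio of Cldn4 turned from 1.03 to -0.34. The basal one stayed at 2.80.

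The other members moved by less. In suprabasal cells, 4 of 7 passed the rule beside 44% of all genes: besides Cldn4, Cldn1 was 1.63 times as high (1.41 to 1.89), F11r 1.54 times as high (1.35 to 1.77), and Ocln stood at 0.657 of the untreated level (0.435 to 0.979). In the upper follicle class, 4 of 7 passed beside 42.3%, with F11r at 4.77 (3.64 to 6.36) and Tjp3 at 2.60 (1.92 to 3.58) times the untreated level and Ocln at 0.495 (0.282 to 0.859). Basal cells had Cldn4 alone past the rule, beside 45% of all genes. Since so many genes passed in this pair of libraries, the counts of members do not set them apart. The median over the 7 was -0.14, 0.58 and 0.45 in basal, suprabasal and upper follicle cells, beside -0.17, -0.21 and -0.14 over all genes.

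**Figure D3:**
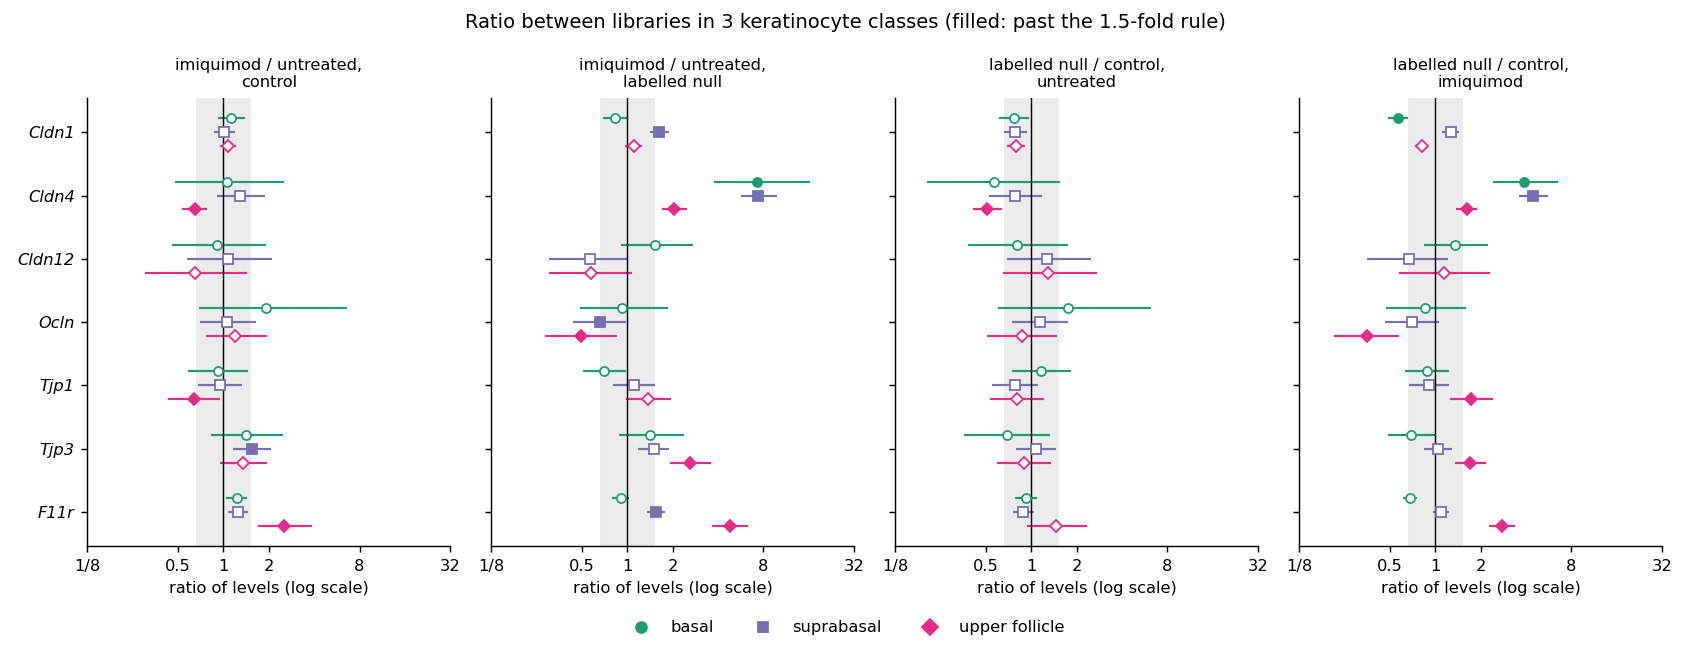
Ratio of the level between libraries (horizontal axes, log scale) for each gene in basal, suprabasal and upper follicle cells, in 4 panels for the 4 comparisons, with exact 95% counting intervals. Filled symbols passed the 1.5-fold rule and the grey band spans less than 1.5-fold. Cldn4 is the member farthest to the right wherever the imiquimod library labelled null is the numerator in basal and suprabasal cells (3.87 to 7.40).

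Between the untreated libraries, 1 member in 1 class passed the rule. Upper follicle Cldn4 stood at 79.5 in the control and 40.6 in the library labelled null, a ratio of 0.511 (0.408 to 0.637), beside 7.51% of all genes past the rule in that class. No member passed in basal cells, where 5 of 7 were measured and 6.49% of all genes passed, or in suprabasal cells, where 6.5% did. A missed rule does not show equal levels: the suprabasal Cldn4 ratio of 0.784 had an interval of 0.525 to 1.18. Cldn1 was lower in the library labelled null in all 3 classes, at 0.766 (0.611 to 0.961) in basal, 0.783 (0.658 to 0.933) in suprabasal and 0.789 (0.686 to 0.908) in upper follicle cells, each time by less than 1.5-fold.

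Between the imiquimod libraries, Cldn4 was higher in the one labelled null in all 3 classes. The ratio was 3.87 (2.43 to 6.49) in basal cells, 4.49 (3.62 to 5.60) in suprabasal cells and 1.62 (1.38 to 1.91) in the upper follicle class. With classes named from a clustering of each library alone, the basal log2 ratio fell from 1.92 to 0.55. Basal Cldn1 went the other way, at 30.4 against 53.9, a ratio of 0.563 (0.484 to 0.656). Those 2 were the basal members past the rule, beside 42.9% of all genes, and Cldn4 was the only suprabasal one, beside 37.1%. This comparison and the preceding ones share libraries, so their ratios are not independent of each other.

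In the upper follicle class, 5 of 7 genes passed between the imiquimod libraries, beside 39.1% of all genes. F11r stood at 30.7 in the control and 84.8 in the library labelled null, a ratio of 2.77 (2.29 to 3.36). Tjp1 (1.73) and Tjp3 (1.71) were also higher, and Ocln stood at 13.7 and 4.84, a ratio of 0.355 (0.214 to 0.570). Suprabasal markers in the same cells summed to 12595, 13155, 13367 and 31939 CPM (9 of 10 detected in each library), with Krt1 at 688, 925, 1075 and 3113. Their sum and F11r were both highest in the imiquimod library labelled null, but the order of the other libraries was not the same for both. The part of suprabasal markers in the F11r difference was not tested. When cluster 10 was left out, the log2 ratio of F11r fell from 1.46 to 0.62, and those of Cldn4 (0.70 to -0.60), Tjp1 (0.79 to -0.22) and Tjp3 (0.77 to -0.34) changed sign. Ocln stood at a log2 ratio of -1.50, but few counts lie behind that value. Only 59 cells of the library labelled null remained in the class, and all 352 together had 25 Ocln UMIs. Over all keratinocyte clusters pooled, the unnamed ones included, F11r was 77.0 in the imiquimod control and 75.6 in the imiquimod library labelled null.

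Upper follicle markers summed to 418, 2890, 642 and 5238 CPM in suprabasal cells, with 8 of 8 detected in each library. Their sum and Cldn4 were both highest in the imiquimod library labelled null. In the control the sum was also higher after imiquimod, while the Cldn4 ratio of 1.29 (0.905 to 1.87) did not pass the rule. Suprabasal cells without a single Krt79 UMI, 470, 544, 638 and 192 cells, held Cldn4 at 12.4, 15.9, 7.85 and 58.0 and the other 7 upper follicle markers at 374, 2725, 554 and 5152 in sum. The part of upper follicle markers in the Cldn4 difference was not tested. In basal cells, suprabasal markers summed to 1001, 1968, 1616 and 5389, and upper follicle markers to 338, 1064, 626 and 2364, beside the basal Cldn4 levels of 3.32, 3.53, 1.87 and 13.6. Basal cells without a Krt79 UMI held 3.65, 2.73, 1.10 and 10.7.

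**Figure D4:**
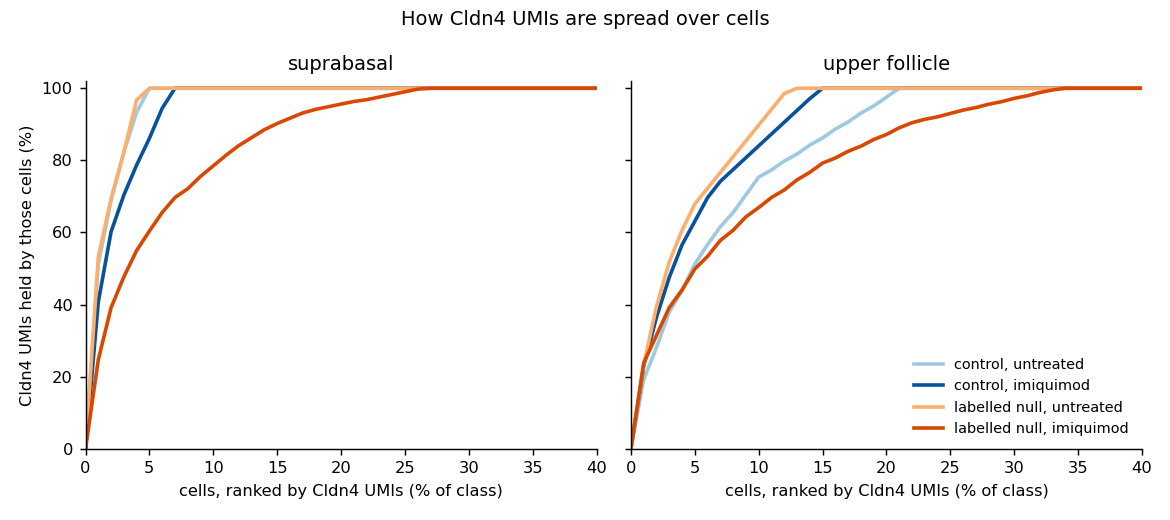
Share of the Cldn4 UMIs of a class (vertical axis, %) held by its highest cells (horizontal axis, % of the class's cells ranked by Cldn4 UMIs), 1 line per library, for suprabasal and upper follicle cells. In suprabasal cells of the imiquimod library labelled null, the curve reaches 100% only at about 26.3% of cells, the share with a Cldn4 UMI, while the other libraries reach it by 6.76%.

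Cldn4 was spread unevenly over cells. In suprabasal cells of the imiquimod library labelled null, 409 UMIs came from 77 of 293 cells, and the 25 cells with at least 5 UMIs held 74.6% of them. The highest cell held 36. The other 3 libraries had 45 UMIs in 24 cells, 108 in 57 and 62 in 37, of which 2, 5 and 3 cells had at least 5. A larger share of the cells of the imiquimod library labelled null thus held a Cldn4 UMI. Whether each held more of it than its greater depth gives was not tested.

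Because of that depth, shares were recomputed after thinning every cell to 1000 UMIs, which left out no cell. The share with a Cldn4 UMI was 4.60%, 6.76%, 4.22% and 26.3% of suprabasal cells unthinned and 0.766%, 1.66%, 0.570% and 4.44% (2.38 to 7.47) thinned. Thinned fibroblasts stood at 0%, 0.223%, 0.110% and 0.135%. In the upper follicle class the thinned share was 5.71%, 3.88%, 3.01% and 8.24%. Both the untreated control and the imiquimod library labelled null were high there.

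The 25 suprabasal cells with at least 5 Cldn4 UMIs were set beside the 216 without one in the same library, a choice made after the data were seen and with no test. Their median depths were 24555 and 17676 UMIs. Cldn1 stood at 184 and 54.7 CPM in these groups, F11r at 110 and 86.6, Tjp3 at 41.9 and 27.9, Tjp1 at 17.7 and 11.8 and Ocln at 8.06 and 5.52. No Cldn12 UMI was counted in the first group, where 3 counts would be 4.83, and Cldn12 stood at 2.51 in the second. Klk7, a protease of the granular layer, stood at 277 and 7.53, Sprr1a, a cornified envelope precursor, at 986 and 234, and Elf3, an epithelial differentiation factor, at 51.6 and 6.03. Krt10 was 23564 and 12507 and Krt14 was 6700 and 11706. The follicle markers Krt79 (147 and 22.6) and Cst6 (944 and 374) were higher in the cells rich in Cldn4 too. In clusterings of each library alone, Klk7 was among the 10 leading genes of the upper follicle cluster in all 4 libraries and Sprr1a in 3 of them.

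**Figure D5:**
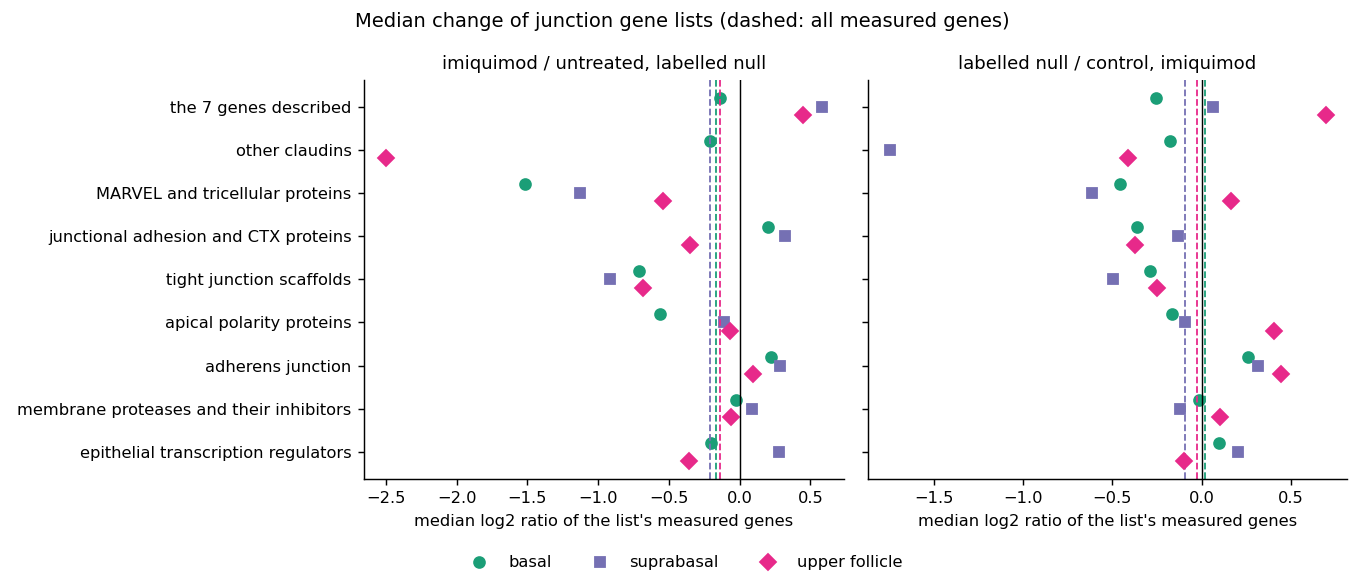
Median log2 ratio of the measured genes of each list (horizontal axes) in basal, suprabasal and upper follicle cells, for imiquimod over untreated in the libraries labelled null (left) and labelled null over control under imiquimod (right). Dashed lines give the median over all measured genes. The scaffold and MARVEL lists lie to the left of those lines in every class on the left, and the 7 genes to the right of them in suprabasal (0.58) and upper follicle cells (0.45).

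The 8 lists of other junction and regulator genes were read for the same comparisons. Between the libraries labelled null, the tight junction scaffolds of suprabasal cells were often lower after imiquimod: 7 of the 11 measured and reported here passed on that side, with a median log2 ratio of -0.92 beside -0.21 over all genes, of which 28.4% were lower and 15.6% higher. Tjap1, a small scaffold-associated protein, stood at 0.160 of the untreated level, Mllt4 (afadin, which links nectins to actin) at 0.365 and Amotl1 at 0.528. The MARVEL and tricellular list had 2 of 3 lower, Marveld2 (tricellulin) at 0.335 and Marveld3 at 0.456. Of the other claudins only 2 were measured there, and Cldn10 was the one lower, at 0.242. None of 3 measured junctional adhesion and CTX genes passed.

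Of the adherens junction genes in the same suprabasal cells, 3 of 10 were higher and none lower, beside the 15.6% of all genes higher. The 3 were Pvrl2 (nectin-2) at 2.15, Cdh3 (P-cadherin) at 1.88 and Vcl (vinculin) at 1.67. In upper follicle cells 0 of 10 adherens junction genes passed, beside 42.3% of all genes in either direction. Among suprabasal polarity genes 2 of 12 were lower, Mpp5 at 0.535 and Prkcz at 0.576, beside 28.4% of all genes lower. The suprabasal membrane proteases and inhibitors that act on claudin-binding proteins were split, with Spint1 (1.86) and St14 (matriptase, 1.75) higher and Tmprss13 (0.442) and Prss8 (prostasin, 0.525) lower. Of 14 epithelial transcription regulators, 6 were higher and 4 lower: Ehf (7.91), Elf3 (4.54) and Ovol1 (3.56) were among the higher and Snai2 (Slug, a repressor that binds the E-box, 0.340) among the lower.

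Basal cells of the same pair gave 5 of 10 scaffolds lower and 1 higher, Arhgef2 at 2.70 (median -0.71, where 28.1% of all genes were lower and 16.8% higher), and 6 of 12 polarity genes lower and none higher, among them Mpp5 (0.439), Pard6b (0.449) and Pard3 (0.572). Marveld3 (0.345), Marveld2 (0.349) and Cldn10 (0.256) were lower there as well. Between the imiquimod libraries, 4 of 11 basal and 5 of 10 suprabasal scaffolds were lower in the one labelled null and none higher, with Tjap1 at 0.327 and 0.166 and Mllt4 at 0.504 and 0.389. Of all genes, 20.4% of basal and 22.6% of suprabasal ones were lower, and 22.4% and 14.5% higher. Cldn10 stood at 0.230 and 0.292. Regulators were higher in 5 and 6 of 14 and lower in 4 and 2, with Grhl3, an activator of barrier genes, at 4.92 and 4.28, Ehf at 2.84 and 3.33, and suprabasal Elf3 at 7.02. Trp63 (p63, the basal epithelial factor) was 0.354 in basal cells. Between the untreated libraries 0 of 9 basal and 1 of 11 suprabasal scaffolds passed, beside 6.49% and 6.5% of all genes, the latter being Tjap1 at 0.606.

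In the imiquimod control, 3 of 9 suprabasal scaffolds were lower than in the untreated control and none higher, beside 10.4% of all genes lower, with Tjap1 at 0.585 and Magi1 at 0.518. Marveld2 (0.548) and Marveld3 (0.625) were lower there too. The suprabasal ratios of Tjap1, Marveld2 and Marveld3 were thus past the rule on the lower side in both genotypes, and whether they differed between the genotypes was not tested.

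Genes whose levels ran most like a member were sought among 10529 genes over the 36 sums (11 classes), by Pearson's r of log2 levels with 10 CPM added. Sums of one library share its depth and those of one class its cell type, so r is a description. Cldn1 ran closest to Epcam (0.915), a claudin-binding membrane protein, Spint1 (0.898), the inhibitor of matriptase, and Lad1 (0.869), a basement membrane anchor protein. Cldn4 ran closest to Sprr1a (0.956), Slc5a9 (0.955) and Pinlyp (0.944), and Tjp3 to Fam89a (0.940), Ccdc64b (0.924) and Rhbg (0.907). Ocln was nearest to Pkib (0.847), Ptgs1 (0.801) and Lsr (0.800), the last a tricellular junction protein. Tjp1 was nearest to Aplp2 (0.834), Sptbn1 (0.819) and Arhgef12 (0.813), F11r to Smagp (0.828), Gatsl3 (0.826) and Cyb561 (0.807), and Cldn12 to Otud6b at 0.701. Among the members, Cldn1 correlated with Ocln at 0.798 and with Cldn4 at 0.727.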

How the data were processed

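Gene expression was measured in single sorted cells of adult mouse back skin with a 3′ droplet assay that counts unique molecular identifiers (UMIs), in 4 libraries of 1 group each. The deposited matrix holds counts, UMIs per gene and cell. The submitters' processing notes name Cell Ranger 2.1.0 and build mm10, and per the labels a barcode suffix gives the library. Other steps by the authors, and whether the deposited counts were evened for depth when the libraries were joined, are not given in the sources used here.

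Barcodes had to show at least 200 genes and no more than 10% mitochondrial UMIs. Scrublet calls (126, 89, 73 and 107 cells) were left out as doublets. Cells were scaled to 10000 and clustered (Leiden, resolution 1, 15 neighbours, 30 components, 2000 variable genes without the junction lists; scanpy 1.11.5). A cluster was named from at least 3 markers of a list that were at least 2-fold above other clusters and seen in 10% of its cells. Clusters with as many markers of a second list, or more of another list among their 10 leading genes, were named from a clustering of their own library. These last 2 rules were added after class sizes, and before member values, were seen. A joint cluster with too few markers for a name was also named from each library's own clustering. Cluster 0, with 2901 cells of the imiquimod library labelled null, was such a cluster. The 2219 fibroblasts of that library were thus named mostly from its own clustering. Counts were summed per class and library with at least 50 cells, and levels are CPM of that sum. Intervals are exact Poisson for levels, conditional binomial for ratios and Clopper-Pearson for shares, at 95%. The call rule and its intervals were checked only on simulated Poisson counts of class sums. Such counts share the assumption of the intervals and leave out uneven spread over cells. The check therefore cannot show how the intervals hold for unevenly spread genes such as Cldn4. For the fold of the rule, a gene at 0 in 1 library was taken as 3 counts there. Log2 ratios had 0.5 counts added to both sums, so at low counts they differ slightly from the ratios given. Pooled keratinocytes are all cells of joint clusters led by any of the 3 keratinocyte lists, unnamed clusters included. All members were named, and from each other list up to 4 genes a comparison past the rule in basal or suprabasal cells, largest first, with at least 50 UMIs.

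The members and lists were chosen with earlier results of these data known. The ratios between classes, the cells with at least 5 Cldn4 UMIs and the genes set beside them, the cells without Krt79, the Cd207 split and the motifs were chosen after the data were seen. One further list and 1 scaffold gene are not reported here and enter no list count or median. Alternatives were TMM scaling (edgeR 4.0.16), other cell filters, class names, UMI minimums, weights and folds.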

Additional observations from a re-analysis of the deposited data

Results flagged for a closer look

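Cldn4 in the upper follicle class went in opposite directions with imiquimod in the 2 genotypes. It was 2.05 times as high after imiquimod in the libraries labelled null and stood at 0.645 of the untreated level in the control, each past the counting rule. The same 4 values give the genotype ratio, which was 1.62 under imiquimod and 0.511 untreated. Neither difference between the effects was tested, since each group is 1 library, and both turned with the cells held in the class. The ratio in the libraries labelled null went below 1 when cluster 10 was left out. The ratio in the control rose above 1 when junction genes were used for clustering. That setting took the imiquimod control class from 798 to 414 cells.

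Over all keratinocyte clusters pooled, the unnamed ones included, the genotype ratio of Cldn4 was 1.96 under imiquimod (20.9 CPM in the control and 40.8 in the library labelled null) and 0.525 untreated (23.8 and 12.5). That difference was not tested either. The pools held 1932, 2884, 2732 and 1635 cells beside upper follicle classes, where Cldn4 is high, of 455, 798, 599 and 352 cells, and its part in the ratio was not tested.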

How the results depend on the processing

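Of the 138 alternative values of the 7-gene median log2 ratio, 128 stayed within the counting interval of the middle gene at the reported setting. That interval is of a single gene and not of the median. Of the rest, 2 changed sign where the middle gene had passed the rule, and 8 moved outside its interval. Changes of sign were not counted where the middle gene had not passed. For the upper follicle class between the imiquimod libraries (0.696), the median was 0.399 with doublets kept, 0.0953 with class names from each library alone, 0.306 with all variable genes, 0.326 with names by marker share alone, -0.287 without the unnamed clusters and -0.0534 pooled. For imiquimod in that class it was -0.167 in the control with each library's own names and -0.343 in the libraries labelled null without the unnamed clusters. It was 0.608 in basal cells of the control with own names and 0.0653 for suprabasal imiquimod in the libraries labelled null pooled.

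Counts of members past the rule moved by over 1.5 times in 39 of 150 cases. For imiquimod in control basal cells (0) they were 3 with own names or marker share alone and 1 with the fold alone or pooled. For imiquimod in basal cells labelled null (1) they were 3 with TMM, pooled or marker share alone and 2 with doublets, without unnamed clusters, with all variable genes or by the fold alone. For basal genotype (0 untreated, 2 under imiquimod) they were 1 pooled when untreated, and under imiquimod 4 with doublets, without unnamed clusters or with all variable genes, 5 by marker share alone and 1 at 2-fold. Suprabasal counts for imiquimod in the control (1) were 2 with the stricter filter or own names and 0 at 2-fold, and in the libraries labelled null (4) 2 with all variable genes and 1 at 2-fold. Suprabasal genotype counts were 1 pooled when untreated (0), and 2 under imiquimod (1) with the stricter filter, doublets, own names, all variable genes, the fold alone or pooled. Upper follicle counts were 1 at 2-fold or pooled for imiquimod in the control (3), 1 without unnamed clusters in the libraries labelled null (4), 0 at 2-fold for the untreated genotype ratio (1), and under imiquimod (5) 3 with own names, all variable genes or marker share alone, 2 at 2-fold or pooled and 1 without unnamed clusters.

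For single members, a change of sign was counted only where the reported ratio had passed the rule. The upper follicle log2 ratios that did so with imiquimod were those of Cldn4. They were 0.0943 in the control with all variable genes and -0.343 in the libraries labelled null without unnamed clusters. Between the imiquimod libraries they were Cldn4 (-0.603), Tjp1 (-0.216) and Tjp3 (-0.337) without unnamed clusters. Pooled, they were Tjp1 (-0.0534), Tjp3 (-0.123) and F11r (-0.0269) in that comparison. Apart from what leaving out clusters or pooling does by construction, the cause was not tested. The suprabasal log2 ratio of Cldn4 with imiquimod in the libraries labelled null (2.88) was 2.34 to 3.11 under the settings that keep the class apart and 1.70 pooled. Among 630 alternative ratios between classes, none changed sign where the reported ratio had passed the rule. Sign changes of the others were not counted. TMM added 0.131 to 0.225 to the log2 ratios of imiquimod and 0.123 to the suprabasal ones between the imiquimod libraries. Leaving out unnamed clusters, or naming by marker share alone, left 20 suprabasal cells in the imiquimod library labelled null and gave no value there, and the stricter filter gave none for its upper follicle class. Equal weights per cell give no counting interval and so no count. Cldn12 and Ocln, with 529 and 561 UMIs in all, are the members depth limits most. No paired analysis was possible because each group has 1 library.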

Other observations

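Cldn1 and Ocln were also high outside the keratinocytes, in the macrophage or monocyte class of the imiquimod library labelled null. Cldn1 stood at 34.3, 19.6, 26.2 and 193.5 CPM in that class across the 4 libraries. A clustering of the imiquimod library labelled null alone gave myeloid clusters of 57, 49 and 39 cells. The cluster of 49 was named from Langerhans cell markers and that of 39 from macrophage markers. The cluster of 57 was left unnamed. It carried 4 of 5 Langerhans cell markers, but its leading genes were Ccl22 and the dendritic cell markers Fscn1 and Ccr7. Split by the presence of a Cd207 UMI, langerin being the defining gene of Langerhans cells, which extend dendrites through epidermal tight junctions, the 84 cells with one held Cldn1 at 278 (242 to 318), Ocln at 39.3 and F11r at 64.3. The 58 cells without one held 34.5, 7.40 and 24.7. Krt5 and Krt14 stood at 90.5 and 193 in the cells with a Cd207 UMI and at 93.7 and 328 in those without. Cells with a Cd207 UMI held Cldn1 at 62.5 in the untreated control (36 cells), 56.0 in the imiquimod control (10 cells) and 45.4 in the untreated library labelled null (24 cells), above the 25.2, 13.6 and 16.8 of the cells without one.

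F11r differed between keratinocyte clusters left unnamed in the joint clustering. It stood at 14.8 and 14.5 CPM in a cluster led by Sostdc1 and Ptn in the untreated libraries (275 and 301 cells). In a cluster led by Cxcl14 and Lhx2 it stood at 116, 291, 104 and 120 (91, 129, 123 and 125 cells). The bulge or outer root sheath sum given above, at 119.5, also had 125 cells of the imiquimod library labelled null. The last value is therefore not to be read as a separate observation.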
